A study of Caenorhabditis elegans with 11 samples.

Results

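The histone genes of *Caenorhabditis elegans* carry the names his and hil followed by a number, and 80 of the 47084 genes listed in the files have such a name. A histone gene was counted as measured when its CPM, the reads of a gene scaled to a fixed library total, reached 0.5 in at least 2 of the 8 libraries compared here, and 43 of the 80 were. The measured genes comprised 12 of 17 genes for the core histone H2A, 7 of 16 for H2B, 6 of 15 for H3, 7 of 16 for H4, 3 of 5 of the H3.3 family and 8 of 9 linker histone genes. The remaining his-39 and his-73, short models placed in no class, were not measured. The gene nearest to the threshold on its upper side was his-3, whose second-highest library had 0.54 CPM, and the nearest on its lower side were his-5 and his-25, each with 0.485 CPM. A library at 0.5 CPM or more was found in every group for 35 of the 43 genes, while his-3, his-7, his-19, his-21, his-22, his-51, his-52 and his-53 passed through the transgenic libraries alone. A difference of those 8 genes from N2 was in part built in by the threshold.

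The study concerned DAF-16, the worm FOXO factor downstream of insulin signalling, with lysines exchanged for arginine. RNA of whole worms, about 1000 per library, on day 1 of adulthood at 20 °C on OP50 bacteria, was sequenced. In the 2KR line, the daf-16 deletion mu86 was combined with the integrated array iqIs85, in which the daf-16 promoter drives DAF-16 tagged with GFP and carrying arginine in place of 2 lysines (K248 + 253R in the labels). In the WT line, the same deletion was combined with iqIs79, which encodes the tagged protein without substitutions. Both arrays hold pRF4, a marker plasmid with a dominant rol-6 allele. N2 is the wild-type laboratory strain, with no array and its own daf-16. There were 3 libraries of 2KR, 3 of WT and 2 of N2, which the labels call biological repeats. Each transgene was represented by 1 line, and effects of the exchanged lysines and of anything else in which the lines differ cannot be told apart. The 4KR line, with 4 lysines exchanged, was left out, because its counts and its gene names did not correspond. The median of the 76 ribosomal protein genes was between 2.69 and 3.79 CPM in its 3 libraries, against 1039 to 1144 CPM in the other 8.

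The 8 libraries held between 21947014 and 30810301 counted reads each. Levels are given in CPM after TMM scaling, which corrects library totals for their makeup. The daf-16 level was 214 to 289 CPM in 2KR, 400 to 452 CPM in WT and 145 to 160 CPM in N2, so the 2KR and WT lines differed in daf-16 RNA as well as in the 2 lysines. The count of rol-6 was 3745 to 4469 in 2KR, 1569 to 1951 in WT, and 2 and 3 in N2. Markers of germline, oocyte and early embryo, sperm, intestine, muscle, hypodermis and neurons were present in every library, with no marker at 0 throughout. The 11 oocyte and early embryo markers summed to 8278 to 9421 CPM in 2KR, 9223 to 9632 CPM in WT, and 9346 and 9567 CPM in N2. The 14 germline markers summed to 3906 to 4255 CPM in 2KR, 4079 to 4413 CPM in WT, and 4327 and 4425 CPM in N2. The 15 sperm markers summed to 15.1 to 25.9 CPM in 2KR, 13.3 to 37.7 CPM in WT, and 26.9 and 36.6 CPM in N2. The part that the makeup of the worms' tissues had in the results on histone genes was not tested, and in bulk RNA fewer cells of a type and less RNA per cell cannot be told apart.

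Histones are the proteins around which DNA is wound. Pairs of H2A, H2B, H3 and H4 form the nucleosome core, and a linker histone (H1) binds where the DNA enters and leaves it. In animals, the bulk of core histone messages is made when DNA is replicated, from clustered genes without introns, and these messages end in a stem-loop in place of a poly(A) tail, whereas H3.3 is made and deposited outside replication and its messages are polyadenylated. In adult worms the somatic cells have stopped dividing, so DNA of the adult itself is replicated mainly in the germline. Embryos held by whole worms also replicate DNA, and their part in the histone RNA was not tested. The sources used here do not give how RNA was selected for sequencing, and a step that takes poly(A) tails would keep few of the stem-loop messages.

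The gene models followed that division in part. Of the 80 genes, 64 had a single exon, and all 64 of those models were coding sequence only, with no untranslated region. Among the other 16, which have introns, 15 were measured, against 28 of the 64 single-exon genes. The genes with introns were all 9 linker genes, his-71, his-72 and his-74 of the H3.3 family, and 4 core genes, the H2A genes his-35 and his-57, the H2B gene his-41 and the H4 gene his-37. The other 2 genes of the H3.3 family, his-69 and his-70, have a single exon. The core genes lay mostly in divergent pairs. In 31 pairs, neighbours were transcribed away from each other across a gap of 227 to 368 bp, and these pairs held 62 of the 80 genes. Among those were his-35, his-41 and his-57, which have introns. Of the pairs, 16 joined H2A with H2B, 14 joined H3 with H4, and 1 joined the H4 gene his-67 with the H2A gene his-68.

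Levels differed between histone genes by over 2 orders of magnitude. Per kilobase of exon, the highest mean levels over the 8 libraries belonged to his-74, an H3.3 family gene, with 295 CPM per kilobase, and hil-4, a linker histone gene, with 294 CPM per kilobase. The linker gene hil-5 followed with 239 and the H3.3 gene his-72 with 235 CPM per kilobase. The next genes were a group of 3 core genes with introns and 1 linker gene, at 55.8 CPM per kilobase for his-37, 54.5 for his-35, 52.7 for hil-2 and 39.7 for his-41. These 3 core genes lie side by side on chromosome V (V:9544659-9547607), and their summed level was 71.9 CPM in 2KR, 72.1 CPM in WT and 70.2 CPM in N2. The highest single-exon gene was his-68, with 37.2 CPM per kilobase, ahead of his-60 with 18.04 CPM per kilobase. The lowest of the measured genes was the linker gene hil-8, at 0.709 CPM per kilobase.

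**Figure D1:**
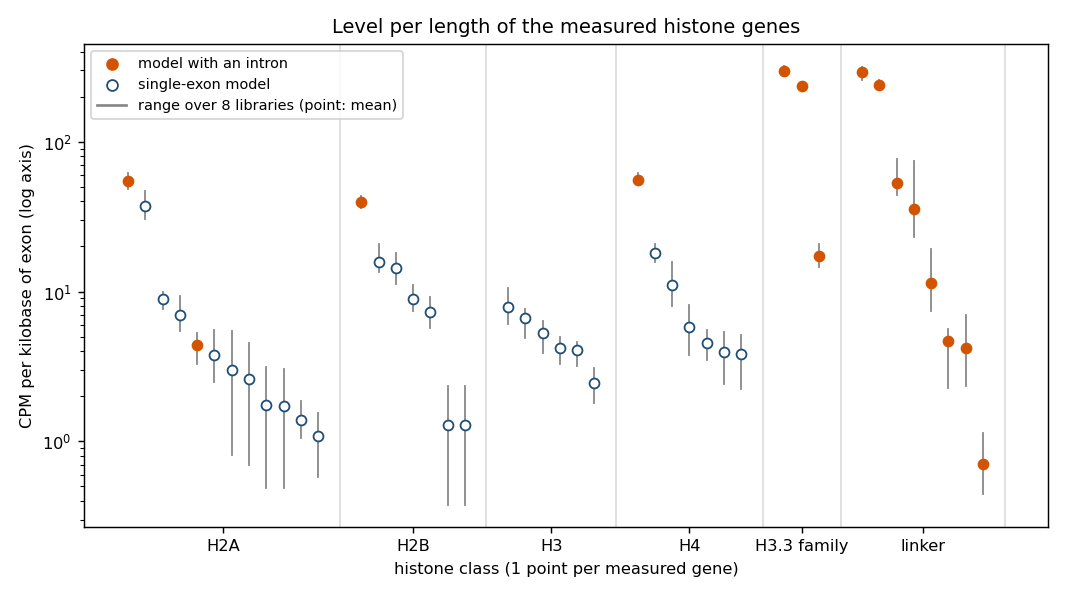
Mean level of each of the 43 measured histone genes in CPM per kilobase of exon, on a log axis, with the range over the 8 libraries as a line. In H2A, H2B and H4 the highest gene has an intron (filled): his-35, his-41 and his-37. All measured genes of the H3.3 family and the linker histones have introns, with his-74 and hil-4 the highest.

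Most of the reads counted at H3-type genes came from the H3.3 family. The H3 genes summed to 13.5 ± 0.204 CPM in 2KR and 14.8 ± 1.90 CPM in WT (SD, n = 3 each), against 16.7 ± 0.837 CPM in N2 (SD, n = 2). The H3.3 family genes summed to 325 ± 9.24 CPM in 2KR, 341 ± 9.58 CPM in WT and 328 ± 8.47 CPM in N2 (SD, same n). The H3.3 family thus held 95.9 to 96.1% of H3-type CPM in 2KR, 95.4 to 96.3% in WT, and 94.9 and 95.4% in N2. These shares are of reads in these libraries, and the part that RNA selection had in them was not tested. They are not scaled by length. The measured H3.3 family genes had 580 to 638 bp of exon with untranslated regions, and each H3 gene had 411 bp of coding sequence only. The 60 single-exon core genes summed to 72.3 ± 2.40 CPM in 2KR, 80.8 ± 7.57 CPM in WT and 78.9 ± 5.95 CPM in N2, and the libraries of the groups overlapped. The H2A genes, with and without introns, summed to 54.6 ± 2.66 CPM in 2KR and 61.9 ± 0.704 CPM in WT, against 52.1 ± 1.24 CPM in N2, with the 3 WT libraries above all others. Most of that sum came from his-35, with a mean of 26.2 ± 1.12 CPM in 2KR and 29.3 ± 2.01 CPM in WT, against 25.4 ± 2.00 CPM in N2, and from his-68, with 13.9 ± 1.09 CPM in 2KR and 16.1 ± 1.69 CPM in WT, against 12.1 ± 0.632 CPM in N2. Neither was called in any comparison without a block, and the smallest such adjusted p was 0.238 for his-35 and 0.0856 for his-68, both in WT against N2 (edgeR). The 4 core genes with introns summed to 74.5 ± 3.81 CPM in 2KR, 75.1 ± 0.324 CPM in WT and 73.7 ± 0.240 CPM in N2.

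Many core genes have near-identical copies, and the files hold the trace of it. Among genes with at least 10 reads over the 8 libraries, 11 pairs had counts within 1 of each other in every library, and 9 of these pairs joined genes of 1 class. The counts were equal in all 8 libraries for 4 pairs, his-15 with his-44, his-22 with his-52, his-27 with his-49, and his-28 with his-50. The sources used here do not give whether a read that matches several copies was counted at each of them. Values of such copies may therefore share reads, and a count over single copies can hold the same reads more than once.

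The substitution was addressed by the comparison of 2KR with WT. No histone gene was called in it: 0 of 43 passed a Benjamini-Hochberg adjusted p of 0.05 in the edgeR quasi-likelihood test, where 0.244% of the 14361 genes tested did. At an unadjusted p under 0.05 there were 3 of 43 histone genes, set against 945 of all genes, or 6.58%. DESeq2 called 0 histone genes, where it called 97 of all genes (0.675%), and the edgeR test blocked by replicate number again called 0, where it called 286 of 13740 genes (2.08%). The log2 fold changes of the 43 genes ran between -0.58 and 0.31, with a median of -0.18 against -0.004 over all genes tested. Of the 43, 36 were below 0 (83.7%), against 51.7% of all genes tested, and between 32 and 36 were below 0 with each library left out and in each other setting tried. Single classes were less steady. H3 had 5 of 6 genes below 0 and H4 5 of 7, but 2 of 6 and 3 of 7 without WT replicate 3. The linker genes had 7 of 8 below 0, but 4 of 8 without WT replicate 2. In those 2 fits H2A had 11 and 12 of 12 below 0, and the H3.3 family 3 of 3. Since copies may share reads, those 36 are not 36 separate observations, and the median was given no test.

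The 3 genes under the unadjusted threshold were 1 gene each of the linker, H2A and H3 classes. The linker gene hil-1 had 2.12, 2.78 and 3.13 CPM in 2KR, against 3.83, 3.79 and 4.32 CPM in WT. Every 2KR library was lower than every WT library, with a log2 fold change of -0.58 ± 0.20 (SE), but the adjusted p was 0.565 (edgeR), and 0.0953 with the block. The H2A gene his-47 had 2.09, 2.30 and 2.096 CPM in 2KR, against 3.02, 2.55 and 2.67 CPM in WT. Its groups did not overlap either, at a log2 fold change of -0.34 ± 0.15 and an adjusted p of 0.758 (edgeR). The H3 gene his-59 had 2.74, 2.48 and 2.77 CPM in 2KR, against 3.58, 3.22 and 3.48 CPM in WT. Again every 2KR library was lower than every WT library, at a log2 fold change of -0.36 ± 0.15 and an adjusted p of 0.713 (edgeR). The smallest p of the H2B genes was that of his-66, with a log2 fold change of -0.30 ± 0.14 and an adjusted p of 0.766 (edgeR). For H4 it was that of his-38, at 0.31 ± 0.20 and an adjusted p of 0.882 (edgeR). Groups without overlap were not particular to hil-1, his-47 and his-59. The 2KR libraries were also below all WT libraries in his-65, his-66 and his-68, among others, and above them in his-38. The share of all genes with such a separation was not counted.

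The abundant histone genes were close in 2KR and WT. The level of hil-4 was 277, 292 and 247.7 CPM in 2KR, against 295, 292 and 272 CPM in WT. The level of his-72 was 142.4, 153 and 145 CPM in 2KR, against 154, 144 and 156 CPM in WT. The level of his-74 was 179, 167 and 161 CPM in 2KR, against 186, 176 and 176 CPM in WT. In all 3 genes the groups overlapped, with adjusted p-values of 0.929, 0.946 and 0.878 (edgeR).

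**Figure D2:**
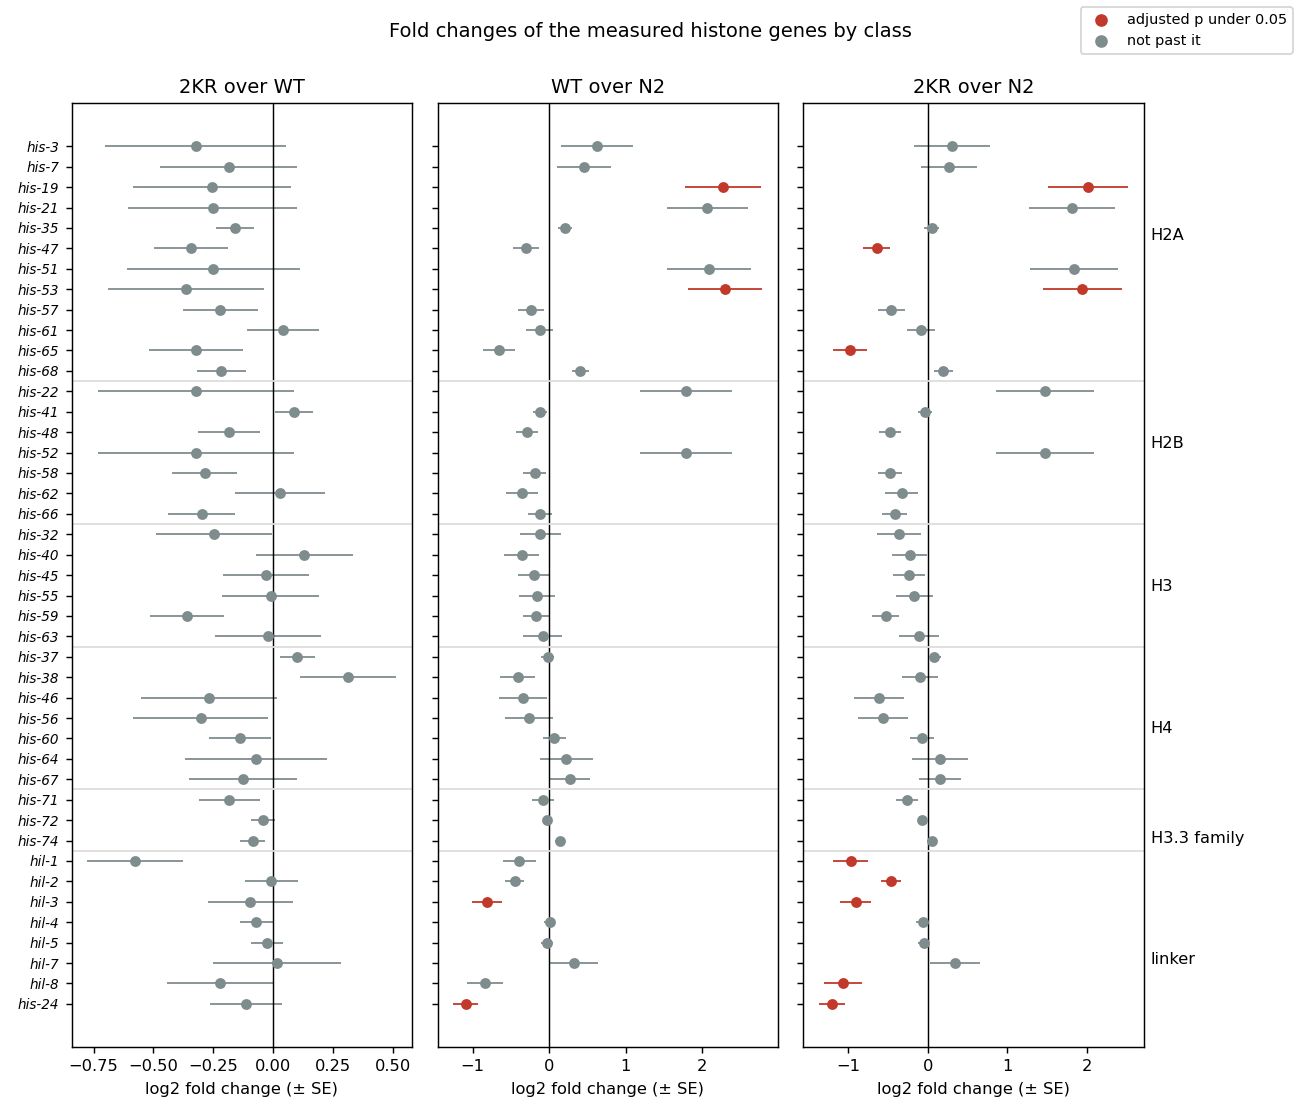
Log2 fold change of each measured histone gene, with its standard error, for 2KR over WT, WT over N2 and 2KR over N2, by class from H2A at the top to the linker genes at the bottom; red points passed an adjusted p of 0.05. No point is red in 2KR over WT, while 4 genes passed in WT over N2 and 9 in 2KR over N2, with his-19 and his-53 on the right and the others on the left.

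The transgenic lines were next compared with N2. These comparisons share the 2 N2 libraries, so each is given with its own values. They do not isolate DAF-16, since 2KR and WT differ from N2 in the daf-16 deletion, the tagged transgene and the rol-6 marker together. In 2KR against N2, 9 of the 43 histone genes were called, where 7.76% of all genes tested were called. Of these 9, 7 were lower (4.0% of all genes) and 2 higher (3.76% of all genes). In WT against N2, 4 of the 43 were called, where 4.07% of all genes tested were called. Of these 4, 2 were lower (2.21% of all genes) and 2 higher (1.86% of all genes). The 2 called higher were his-19 and his-53 in both comparisons, and they may share reads. The genes called lower were mostly linker histones: 5 of the 8 measured linker genes were called lower in 2KR and none higher, and 2 of the 8 were called lower in WT and none higher. None of the H3.3 family, H3 or H4 genes was called in either comparison (edgeR). At an unadjusted p under 0.05 there was 1 H3 gene in 2KR against N2, where 3588 of all genes (25%) had such a p, and 1 H3.3 family gene in WT against N2, where 19.1% had. DESeq2 called 6 histone genes in 2KR against N2, where it called 8.5% of all genes, and 5 in WT against N2, where it called 4.66%. The edgeR counts rested on single libraries. In 2KR against N2 the count of 9 was 1 without N2 replicate 1, 3 without N2 replicate 2, 5, 2 and 4 without 2KR replicates 1, 2 and 3, and 5 without WT replicate 3. In WT against N2 the count of 4 was 1 without N2 replicate 1 and 2 without N2 replicate 2, WT replicate 1 or WT replicate 2.

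The gene his-24 encodes the linker histone H1.1, which in *C. elegans* has been studied for its part in germline gene silencing. It had 26.5, 24.5 and 21.3 CPM in 2KR, 26.5, 27.4 and 24.4 CPM in WT, and 68.2 and 42.9 CPM in N2. Both N2 libraries were above every transgenic library, and the N2 libraries were also far from each other. It fell in 2KR against N2, with a log2 fold change of -1.20 ± 0.16 and an adjusted p of 0.00263 (edgeR). It fell in WT against N2 as well, by -1.09 ± 0.16 with an adjusted p of 0.00519 (edgeR). It was the only histone gene called in both comparisons with each of the 8 libraries left out in turn and under each of the 8 other settings tried. The size of the difference rested on N2 replicate 1: without it the log2 fold change was -0.82 in 2KR against N2 and -0.72 in WT against N2, and without N2 replicate 2 it was -1.50 and -1.39.

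The gene his-24 lies on chromosome X (X:14490094-14491119), and the annotation places the non-coding RNA genes M163.16 and M163.19 on the opposite strand within it. The counts of M163.16 were 53, 41 and 45 in 2KR, 53, 48 and 52 in WT, and 119 and 65 in N2. These followed the same order as his-24, at a log2 fold change of -1.39 in 2KR against N2 and -1.18 in WT against N2. The sources used here do not give whether reads were counted by strand, so RNA of his-24 and of its antisense neighbour cannot be told apart in the smaller count. At 601 to 1460 reads per library, his-24 had over 10 times the reads of M163.16.

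Of the other linker genes, hil-3 was also called in both comparisons. It had 8.003, 9.28 and 6.36 CPM in 2KR, 7.23, 10.4 and 7.65 CPM in WT, and 16.6 and 12.9 CPM in N2, with N2 above every transgenic library. Its log2 fold change was -0.91 ± 0.19 in 2KR against N2, with an adjusted p of 0.022, and -0.81 ± 0.19 in WT against N2, with an adjusted p of 0.0472 (edgeR). The 2KR call was lost without 2KR replicate 3, N2 replicate 1 or N2 replicate 2, at adjusted p-values of 0.0603, 0.234 and 0.0595. The WT call was lost without 2KR replicate 1, WT replicate 1, WT replicate 3, N2 replicate 1 or N2 replicate 2, at 0.0685, 0.102, 0.133, 0.389 and 0.100, and with library totals in place of TMM, at 0.063.

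Called in 2KR against N2 but not in WT against N2 were hil-1, hil-2 and hil-8, and the difference between 2KR and WT was called for none of them. The gene hil-8, named as a linker histone and with 6 introns in its model, had 0.947, 0.767 and 1.03 CPM in 2KR, 0.885, 1.12 and 1.19 CPM in WT, and 1.96 and 1.87 CPM in N2. These correspond to 21 to 29 reads per library in 2KR, 24 to 34 in WT, and 42 in each N2 library. Its log2 fold change was -1.06 ± 0.24 in 2KR against N2, with an adjusted p of 0.0261, and -0.84 ± 0.24 in WT against N2, with an adjusted p of 0.0832 (edgeR). The 2KR call was lost in DESeq2, at 0.0768, and without 2KR replicate 1, 2KR replicate 2, N2 replicate 1 or N2 replicate 2, at 0.0527, 0.0742, 0.203 and 0.136.

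The gene hil-1 had 2.12, 2.78 and 3.13 CPM in 2KR, 3.83, 3.79 and 4.32 CPM in WT, and 6.36 and 4.10 CPM in N2. The N2 libraries were above all of 2KR but overlapped WT. In 2KR against N2 the log2 fold change was -0.97 ± 0.22, with an adjusted p of 0.0282 (edgeR). The call was lost without 2KR replicate 1, 2KR replicate 2 or N2 replicate 1, at adjusted p-values of 0.0657, 0.0596 and 0.316, and without the last the log2 fold change was -0.61. The gene hil-2 had 38.4, 37.3 and 33.4 CPM in 2KR, 37.3, 38.6 and 33.9 CPM in WT, and 57.8 and 42.2 CPM in N2. Here the 2KR and WT libraries overlapped fully and N2 was above both. The log2 fold change was -0.46 ± 0.12 in 2KR against N2, with an adjusted p of 0.049, and -0.45 ± 0.12 in WT against N2, with an adjusted p of 0.0765 (edgeR). In WT against N2 it was called in 4 of the 8 other settings, among them DESeq2 at 0.0177 and no low-count filter at 0.0189, and also without N2 replicate 2, at 0.0275. The 2KR call held in 2 of the 8 fits that left out 1 library, without WT replicate 2 and without N2 replicate 2, and in 5 of the 8 other settings. Without N2 replicate 1 its log2 fold change was -0.21 at an adjusted p of 0.422, and without the 2KR replicates, WT replicate 1 or WT replicate 3 the adjusted p was 0.0592 to 0.125.

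The remaining 3 measured linker genes were not called in any comparison. The level of hil-4 in N2 was 299.7 and 270 CPM, of which 1 library was above all 2KR and WT libraries and 1 among them. The gene hil-5 had 196, 221 and 194 CPM in 2KR, 203, 223 and 196 CPM in WT, and 209 and 213 CPM in N2. The gene hil-7 had 2.87, 2.34 and 3.23 CPM in 2KR, 2.95, 2.92 and 2.49 CPM in WT, and 3.18 and 1.29 CPM in N2, so the lower N2 library was below all others and the higher among them. The adjusted p of hil-4, hil-5 and hil-7 in 2KR against N2 was 0.630, 0.685 and 0.529 (edgeR). Most of the linker CPM came from hil-4 and hil-5. The summed linker level was 551 ± 40.1 CPM in 2KR and 573 ± 28.4 CPM in WT (SD, n = 3 each), against 626 ± 52.4 CPM in N2 (SD, n = 2).

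**Figure D3:**
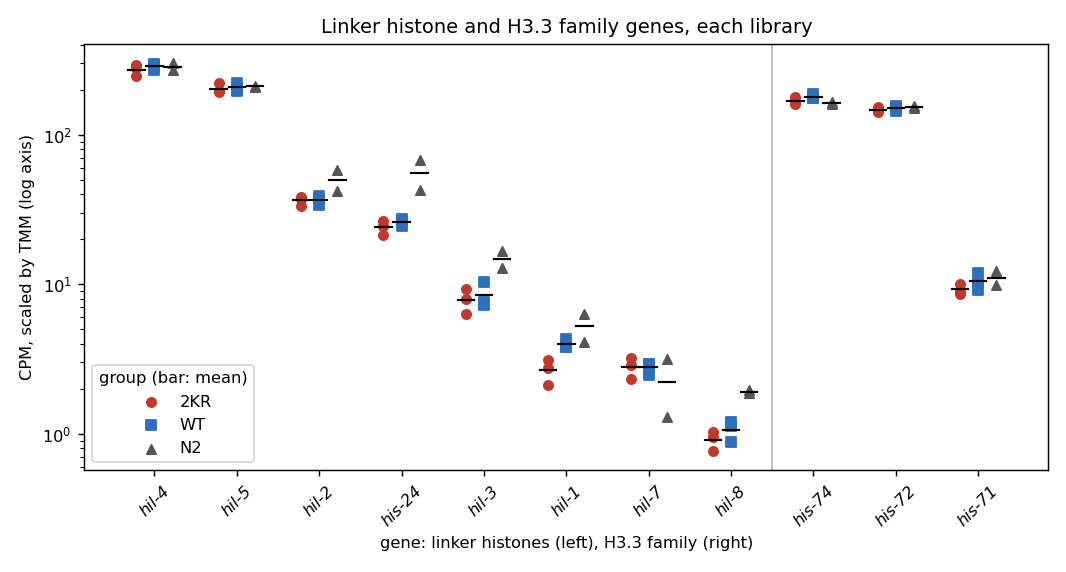
Level of the 8 measured linker genes (left) and the 3 measured H3.3 family genes (right) in every library, in TMM-scaled CPM on a log axis, with a bar at each group's mean. The N2 triangles lie above every 2KR and WT point in his-24, hil-2, hil-3 and hil-8 and among them in hil-5.

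Of the H3.3 family genes, which encode the replacement form of H3, none was called against N2. The gene his-72 had 156 and 152 CPM in N2, inside the spread of the transgenic libraries. The gene his-74 had 166 and 160 CPM in N2, lower than every WT library, with a log2 fold change of 0.14 ± 0.06 in WT against N2 and an adjusted p of 0.235 (edgeR). The gene his-71 had 8.56, 10.1 and 9.06 CPM in 2KR, 10.4, 11.9 and 9.20 CPM in WT, and 12.2 and 9.95 CPM in N2, and all 3 groups overlapped. Their adjusted p in 2KR against N2 was 0.482 for his-72, 0.597 for his-74 and 0.278 for his-71 (edgeR).

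Of the H2A genes, his-65 and his-47 were called lower and his-19 and his-53 higher in 2KR against N2. The gene his-65 had 1.18, 0.950 and 1.10 CPM in 2KR, 1.47, 1.27 and 1.30 CPM in WT, and 2.103 and 2.14 CPM in N2. The 3 groups did not overlap, with 2KR lowest and N2 highest. The log2 fold change was -0.97 ± 0.21 in 2KR against N2, with an adjusted p of 0.0231, and -0.65 ± 0.21 in WT against N2, with an adjusted p of 0.121 (edgeR). The 2KR call was lost in DESeq2, at 0.075, and without 2KR replicate 2, 2KR replicate 3, N2 replicate 1 or N2 replicate 2, at 0.0664, 0.0509, 0.172 and 0.141. The gene his-47 had 3.13 and 3.61 CPM in N2, above all the 2KR and WT values given earlier. Its log2 fold change in 2KR against N2 was -0.64 ± 0.17 with an adjusted p of 0.0497 (edgeR), and the call was lost without each of the 8 libraries in turn (0.0517 to 0.273) and held in 2 of the 8 other settings, with 0.145 in DESeq2.

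The genes his-65 and his-47 belong to the array on chromosome IV (IV:11324056-11407427), all 12 members of which were measured. The array summed to 28.3, 27.4 and 29.5 CPM in 2KR, 33.7, 27.8 and 36.7 CPM in WT, and 35.9 and 40.6 CPM in N2. Both N2 libraries were above every 2KR library, while WT overlapped both. Its H2B gene his-48 had 4.998, 5.04 and 5.36 CPM in 2KR, 6.12, 5.02 and 6.35 CPM in WT, and 6.59 and 7.67 CPM in N2. With a log2 fold change of -0.47 ± 0.14 in 2KR against N2 and an adjusted p of 0.0717, it had the smallest p of the H2B genes (edgeR). It was called without WT replicate 2, at 0.0471, and in 2 of the 8 other settings. The H3 gene with the smallest p in 2KR against N2, his-59, lies in another array of chromosome IV (IV:7485834-7488659), and had a log2 fold change of -0.53 ± 0.17 and an adjusted p of 0.0915 (edgeR). The H4 gene with the smallest p, his-46 of the 12-member array, had -0.61 ± 0.32 and an adjusted p of 0.259 (edgeR). In WT against N2 the smallest p of H3 and H4 belonged to the divergent pair his-40 and his-38 of chromosome X, at -0.36 ± 0.23 and -0.41 ± 0.23 with adjusted p-values of 0.434 and 0.370 (edgeR).

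The genes called higher lie in the arrays on chromosome V (V:8847393-8898539), which hold 14 histone genes, 6 of them measured. Summed over the 14 genes, the level was 5.13, 10.2 and 4.48 CPM in 2KR, 7.004, 8.995 and 7.34 CPM in WT, and 2.103 and 2.90 CPM in N2. Every transgenic library was above both N2 libraries, and 2KR replicate 2 was the highest of the 8. The counts behind these sums were small. The H2A gene his-53 had 27, 53 and 26 reads in 2KR, 38, 56 and 37 reads in WT, and 7 reads in each N2 library. The H2A gene his-19 had 25, 48 and 23 reads in 2KR, 34, 46 and 30 reads in WT, and 6 reads in each N2 library. Both genes rose in each comparison with N2, but both were counted as measured through their transgenic libraries alone. Their counts ran close together over the libraries, and each lies 292 bp from an H2B gene transcribed away from it. The 2 genes may share reads, which was not tested, so the 2 calls may not be separate observations. The sum over the 14 genes may likewise hold the same reads more than once. Among the 35 genes with a library at the threshold in every group, 0 were called higher in either comparison, with 7 called lower in 2KR and 2 in WT (edgeR).

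The log2 fold change of his-53 was 1.94 ± 0.49 in 2KR against N2, with an adjusted p of 0.0407, and 2.30 ± 0.48 in WT against N2, with an adjusted p of 0.028 (edgeR). That of his-19 was 2.02 ± 0.50 in 2KR against N2, with an adjusted p of 0.038, and 2.27 ± 0.50 in WT against N2, with an adjusted p of 0.0324 (edgeR). DESeq2 called both genes in both comparisons, at adjusted p-values of 0.00391 to 0.0198. Since both were measured through the transgenic libraries alone, the direction of these differences was in part built in. Leaving out either N2 library ended all 4 calls, at adjusted p-values of 0.190 to 0.262 (edgeR), with log2 fold changes of 1.91 to 2.34. The 2KR call of his-53 was also lost without 2KR replicate 2, 2KR replicate 3 or WT replicate 3 (0.0737, 0.0524 and 0.0554) and its WT call without WT replicate 2 (0.0654). The 2KR call of his-19 was also lost without 2KR replicate 2 or WT replicate 3 (0.0676 and 0.0502) and its WT call without WT replicate 1 or WT replicate 2 (0.0525 and 0.0782).

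The other H2A and H2B genes of these arrays had the same order of groups at still smaller counts. Of these, his-21, his-22, his-51 and his-52 were measured through their transgenic libraries alone. Their lower N2 counts were thus in part built in by the threshold. The H2A gene his-21 had 18, 32 and 13 reads in 2KR, 23, 29 and 20 reads in WT, and 4 and 5 reads in N2, and its copy his-51 differed from it by at most 1 read per library. The H2B gene his-22, with the same counts as his-52, had 12, 24 and 8 reads in 2KR, 13, 18 and 22 reads in WT, and 3 and 5 reads in N2. Its log2 fold change was 1.47 ± 0.62 in 2KR against N2 and 1.79 ± 0.60 in WT against N2, with adjusted p-values of 0.171 and 0.134 (edgeR). The H2B genes his-20 and his-54, which were not measured, had 5 to 14 reads in each 2KR library, 8 to 12 in each WT library and 2 or 3 in each N2 library. Of the H3 and H4 genes of the arrays, none of which was measured, the H3 gene his-17 had the same order, with 10, 12 and 7 reads in 2KR, 9, 8 and 12 reads in WT, and 4 and 5 reads in N2. In the others N2 overlapped the transgenic libraries. The H4 gene his-18 had 6, 8 and 5 reads in 2KR, 4, 6 and 11 reads in WT, and 3 and 11 reads in N2. The H3 genes his-27 and his-49 each had 6, 6 and 4 reads in 2KR, 7, 3 and 6 reads in WT, and 2 and 5 reads in N2.

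**Figure D4:**
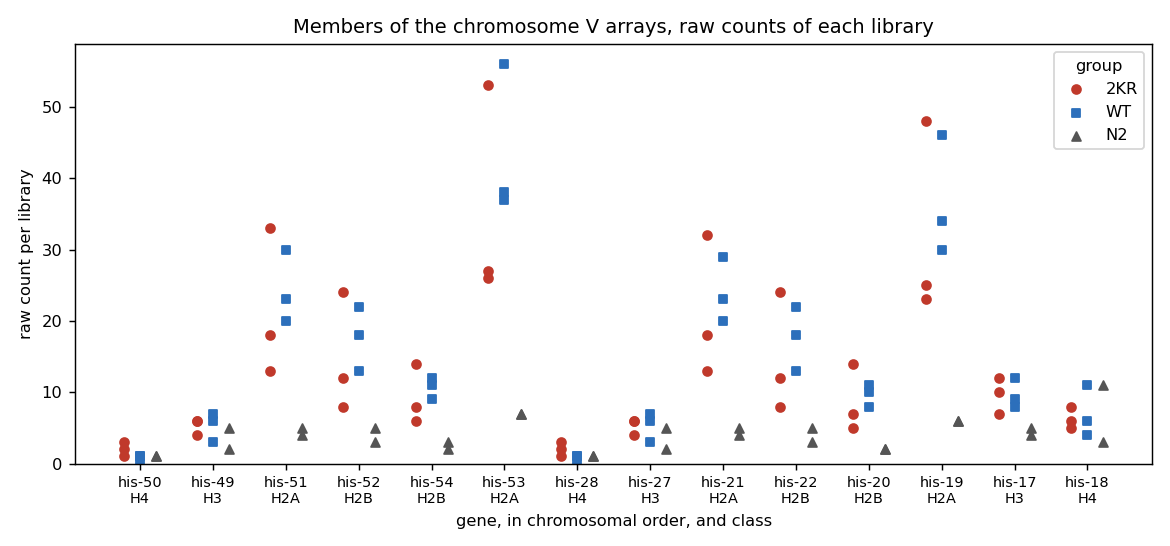
Raw count of each library for the 14 histone genes of the chromosome V arrays, in chromosomal order, with the class under each name. The H2A and H2B genes have N2 counts of 2 to 7, lower than every 2KR and WT count of the same gene. In the H3 gene his-17 the N2 counts are also lower than all others. The N2 counts of the H3 gene his-49 and the H4 gene his-18 overlap the others.

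Of 49 other genes inside the arrays or within 50000 bp, 14 were tested, 2 of them inside. Of these 14, 0 were called higher and 1 lower in each comparison with N2 (edgeR). Of all genes tested, 3.76% were called higher and 4.0% lower in 2KR, and 1.86% higher and 2.21% lower in WT. So few genes cannot show whether the surroundings changed with the arrays. Untested inside them, F07B7.13 had 6, 8 and 9 reads in 2KR, 7, 7 and 8 in WT, and 2 and 1 in N2. F07B7.1, also untested, had 4, 5 and 3 reads in 2KR, 5, 7 and 3 in WT, and 3 in each N2 library.

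The spread between libraries of a group also differed by class. Over all genes tested, the median SD of log2 CPM within groups was 0.151. It was 0.0607 for the H3.3 family, 0.154 for H2B, 0.199 for H2A, 0.204 for H3, 0.218 for the linker genes and 0.338 for H4. The low-count arrays made up much of the upper end, with his-22 and his-52 at 0.586, while his-72, with 3331 to 4439 reads per library, was at 0.0545. Within N2, replicate 1 was above replicate 2 in his-24, hil-1, hil-2, hil-3 and hil-7, the last with 3.18 against 1.29 CPM. Comparisons of these linker genes with N2 therefore rest on 2 libraries that differed from each other.

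Genes that supply histones to chromatin or act in DNA replication were taken from a list of 37, of which 34 were found in the files and all 34 were tested. None was called in 2KR against WT by edgeR or DESeq2, where the smallest p belonged to cpar-1, a relative of the centromeric H3 gene hcp-3, with a log2 fold change of -0.18 ± 0.06 and an adjusted p of 0.541 (edgeR), and to the cell cycle kinase gene cdk-2, with -0.11 ± 0.06 and an adjusted p of 0.859 (edgeR). In each comparison with N2, 1 of the 34 was called. Of all genes tested, 7.76% were called in 2KR against N2 and 4.07% in WT against N2, so 1 of 34 is not above those shares. The called gene was nasp-2, a homolog of the vertebrate histone chaperone NASP. It averaged 1478 ± 91.2 CPM in 2KR, 1490 ± 10.1 CPM in WT (SD, n = 3 each) and 1111 ± 10.1 CPM in N2 (SD, n = 2), with every transgenic library above both N2 libraries. It rose by a log2 fold change of 0.41 ± 0.06 in 2KR against N2 (adjusted p = 0.00507, edgeR) and of 0.42 ± 0.06 in WT against N2 (adjusted p = 0.00537, edgeR). Without either N2 library, 0 of the 34 genes were called in the comparisons with N2. The next smallest p belonged to rnr-2, the small subunit of ribonucleotide reductase, at 0.25 ± 0.07 in 2KR against N2 and 0.23 ± 0.07 in WT against N2, with adjusted p-values of 0.0566 and 0.0961 (edgeR). The gene cdl-1, which encodes the protein that binds the stem-loop of histone messages, averaged 227 ± 12.1 CPM in 2KR, 234 ± 3.56 CPM in WT (SD, n = 3 each) and 248.2 ± 0.450 CPM in N2 (SD, n = 2), and was not called.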

How the data were processed

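Per the submitters' processing notes, the authors used Trimmomatic 0.32, TopHat2 2.1.0 and DESeq2 1.14.1. The sources used here do not give the build, the counting program, the use of strand or the treatment of reads with several matches. Each deposited file holds the authors' raw count per gene of 1 library and, per the file headers, CPM values, which were not used. From the counts, edgeR 4.0.16 and limma 3.58.1 in R 4.3.3 fitted the 8 libraries with a term per group, after filterByExpr (14361 genes) and TMM scaling, and the quasi-likelihood test was adjusted by Benjamini-Hochberg over all genes tested, with a gene called at an adjusted p under 0.05. DESeq2 1.42.0 was an alternative. Of the 80 histone genes, 50 entered the fit, including all 43 measured ones. Printed CPM is scaled by TMM, except at the 0.5 threshold and in the 4KR check, and ± in a fold change is the standard error. Python 3.11.15, pandas 2.3.3, NumPy 2.4.6 and matplotlib 3.10.9 made the tables and plots. The fit was tested on simulated data.

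Gene models and positions are those of Ensembl 115 for WBcel235, matched by identifier. Classes came from general knowledge, in place of a planned protein match, and the annotated coding length was that of the class for 63 of 64 core genes (not his-57). Named are the linker and H3.3 family genes, the called genes and, per core class, the genes highest in level, largest in spread or smallest in p; his-68, M163.16, cdl-1, genes named for their level per length or equal counts, and the other genes of the chromosome V arrays were added after their values were seen. The genes and lists were chosen with earlier results of these data known. Same-numbered 2KR and WT libraries deviated together (correlations of 0.413, 0.398 and 0.296 over genes), so the block is given beside that comparison. All other pairs were below 0, which is in part built in, because deviations from a group mean sum to 0. The p-values measure the spread between these libraries.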

Additional observations from a re-analysis of the deposited data

How the results depend on the processing

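The 31 single-gene fold changes given kept their sign in each of the 8 other settings and 8 fits without 1 library. No histone gene was called in 2KR against WT in any of them. All genes called in 2KR against WT numbered 35, 97 under DESeq2, 99 without the low-count filter, 22 in a fit of the 2 groups alone, 286 with the replicate block of label numbers, 319 with the block of file-header repeats, and 7 to 124 without 1 library. In WT against N2 they numbered 584, 911 without the filter, 1236 and 1455 with the label and header replicate blocks, and 101 to 616 without 1 library; the histone genes numbered 4, 7 without the filter, 7 and 8 with the blocks, and 1 to 6 without 1 library. In 2KR against N2 they numbered 1114, 2780 and 2457 with the blocks, and 162 to 1348 without 1 library; the histone genes numbered 9, 14 and 12 with the label and header blocks, and 1 to 9 without 1 library. With the label and header blocks, the adjusted p of hil-2 in WT against N2 was 0.0471 and 0.00167, and that of his-48 in 2KR against N2 was 0.0382 and 0.0435. That of his-22 in 2KR against N2 was 0.0202 with the label block, and that of his-68 in WT against N2 was 0.0402 with the header block. The supply genes called in WT against N2 numbered 1, 2 under DESeq2, without the filter and with each block, and 0 to 1 without 1 library. In 2KR against N2 they numbered 1, 2 under DESeq2, library totals, no filter, the CPM filter or the 2 groups alone, 4 with each block, and 0 to 2 without 1 library. N2 numbers pair no samples by label or design, and the header of its second label repeat names another repeat. Without 1 N2 library, the lone one is assumed to vary like the other groups. None of the 36 class sums recomputed under other scaling moved by its SD. The cause of these differences was not tested. Depth limits the chromosome V array genes, at 1 to 11 reads each in N2.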
